A study of Triticum aestivum with 16 samples.

Results

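Axillary buds of the wheat hexa-mutant M6 were compared with shoot apices of the same mutant, in 4 of the 16 RNA-seq libraries of the series: M6 bud replicates 1 and 2 and M6 apex replicates 1 and 2. The libraries were chosen by their labels alone. M6 is a line of the bread wheat cultivar ZM7698 in which TaSPL7 and TaSPL15 are both mutated on all 3 subgenomes (genotype aabbdd). WT ZM7698 buds and apices, 2 libraries each, served for comparison. All ZM7698 tissue was taken at 2 weeks, from plants kept at 22 °C for 16 h of light and at 19 °C for 8 h of dark, and the buds were 1 to 2 cm long. Leaf, root and shoot apex of a second cultivar, AK58, at 2 weeks, and AK58 buds at 6 weeks after 30 days at 4 °C, were used only to build tissue lists and to set a few levels side by side. The labels do not say whether replicates came from separate plants, nor how many mutant lines were used, so the spread behind each p-value is that between these libraries, which may be technical. The levels of TaSPL7 and TaSPL15 themselves were not analysed here, since the list of published identifiers used below does not hold them.

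An axillary bud is a small shoot meristem with its young leaves, formed in a leaf axil, and in cereals it either stays dormant or grows out as a tiller. SPL proteins are plant transcription factors with an SBP DNA-binding domain. In rice, a member of the family that restrains tillering binds the promoter of TB1, a TCP transcription factor that holds back bud outgrowth.

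The deposited ZM7698 values are TPM (a share of all transcripts, corrected for transcript length), so the depth of each library is unknown. Between 70100 (M6 bud replicate 2) and 73715 (M6 apex replicate 1) of 120744 identifiers were above 0. The M6 bud replicates were further apart than those of any other ZM7698 group. Over the 50878 tested genes, Pearson's r between replicates on log2(TPM + 1) was 0.947 in M6 buds, 0.982 in M6 apices, 0.983 in WT buds and 0.971 in WT apices. M6 bud replicate 1 was at least 2-fold above replicate 2 for 2645 genes (5.2%) and at least 2-fold below it for 285 (0.56%). For M6 bud replicate 2 the nearest libraries were the WT buds, with r of 0.972 and 0.975, and M6 bud replicate 1 had r of 0.944 or less with every library other than replicate 2. The 10 most abundant identifiers held 3.52% of the TPM in M6 bud replicate 1, and between 2.49% and 2.96% in the other ZM7698 libraries. The results below are therefore given over both buds and for each bud alone; the comparisons of each bud alone share the apex libraries, so they are not independent of each other.

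Few genes separated M6 bud from M6 apex. With both bud replicates, 17 genes were called higher in the bud (0.0334% of 50878 tested) and 28 lower (0.055%), 45 in all (0.0884%). A gene was called where limma gave an adjusted p under 0.05 and the log2 fold change was 1 or more in size. Before adjustment, 5940 genes were under 0.05. In WT, the same fit called 821 genes higher in the bud (1.61%) and 450 lower (0.884%), 2.5% in all. The WT counts depended on single libraries: they were 5 and 0 without WT bud replicate 1, 0 and 0 without WT bud replicate 2 or without WT apex replicate 2, and 283 and 769 without WT apex replicate 1. The M6 counts did so too. Without a WT bud library they were 3 higher and 1 lower, without M6 apex replicate 1 they were 1 and 4, and without M6 apex replicate 2 they were 2 and 7. Without a WT apex library 19 or 20 genes were called higher and 77 lower. In bulk tissue, fewer cells of a type and less RNA per cell cannot be told apart.

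The called genes covered a wide range of levels. The 17 higher genes had a median level of 18.5 TPM in M6 bud, from 2.32 to 245 TPM, and a median of 0.568 TPM in M6 apex, and 12 of them had an apex mean under 1 TPM. The 28 lower genes had a median level of 14.9 TPM in M6 apex, from 2.54 to 209 TPM, and a median of 1.04 TPM in M6 bud, with 14 of them under 1 TPM there. The log2 fold change had a median of 2.66 over the higher genes, with a range from 1.49 to 7.14. Over the lower genes the median was -2.28 and the range -1.31 to -3.19. The median over all tested genes was 0.03. By bud, the higher genes lay 1.52 to 7.34 above the M6 apex mean in replicate 1 and 1.43 to 6.94 in replicate 2. The lower genes lay at -1.215 to -3.38 in replicate 1 and -1.41 to -3.105 in replicate 2. Replicate 1 was further from the apex mean than replicate 2 in 11 of the 17 and in 22 of the 28. The 45 were called on both buds together, so these ranges do not show that each bud would give the calls. In all 45 genes the 2 bud libraries lay on one side of the 2 apex libraries, as did 19.8% of all tested genes with the bud higher and 20.6% with the bud lower. In WT these shares were 20% and 32.3%. In M6, 1.63% of tested genes had both buds above both apices with a log2 fold change of at least 1, and 2.62% had both below with one of -1 or less, so most genes with a difference of that size did not pass the test.

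On the log2(TPM + 1) scale, the called gene with the largest increase was TraesCS6A02G103300, a gene on chromosome 6A by its identifier, which the files pair with no name. It was at 1.00 and 0.496 TPM in the M6 apices and at 279 and 211 TPM in the M6 buds. Both buds were far above both apices. The means were 0.748 ± 0.356 TPM in apex and 245 ± 48.4 TPM in bud (SD, n = 2), and the log2 fold change was 7.14 ± 0.29 (SE; limma adjusted p = 0.00542). WT apices held 0.0719 and 0.266 TPM and WT buds 17.3 and 9.90 TPM, a log2 fold change of 3.60, so the same tissue was high in both genotypes and the M6 buds were higher than the WT buds. Its call held in all 18 alternatives, with log2 fold changes from 5.43 to 8.23. The M6 fold change exceeded that of WT by 3.54 on the log2 scale, with an adjusted p of 0.413 (limma, unadjusted 8.2e-05). In AK58, whose values are normalised reads and cannot be set against TPM, leaves and roots were listed at 0, apices at 2.51 and 11.9, and buds at 53.3 and 3730. The 2 AK58 buds were thus far apart, though both were above both apices.

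TraesCS6D02G091800, on chromosome 6D by its identifier, had the next largest increase among the called genes. With 0.1 TPM added in place of 1 the order turned, with 8.86 for TraesCS6D02G091800 and 8.23 for TraesCS6A02G103300, and as a ratio of mean TPM the first was 1125-fold and the second 328-fold higher in bud. Its levels were 0.0809 and 0.0660 TPM in the M6 apices and 100.5 and 64.8 TPM in the M6 buds. WT buds held 2.23 and 4.21 TPM. The log2 fold change was 6.25 ± 0.28 in M6 (limma adjusted p = 0.00542) and 1.99 in WT, and the difference of 4.26 had an adjusted p of 0.413. AK58 buds held 10.8 and 2162 normalised reads and AK58 apices 5.01 and 8.49, so here too 1 AK58 bud was far above the other. Without M6 apex replicate 1 the adjusted p of the M6 fold change was 0.0598.

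Among the called genes, the largest decreases were in TraesCS4A02G369100 and TraesCS7D02G048000, which the files also leave unnamed. TraesCS4A02G369100 fell from 48.8 and 42.5 TPM in the M6 apices to 3.47 and 4.85 TPM in the buds, a log2 fold change of -3.19 ± 0.22 (limma adjusted p = 0.0288). TraesCS7D02G048000 fell from 18.1 and 12.3 TPM to 0.664 and 0.881 TPM, a log2 fold change of -3.18 ± 0.18 (limma adjusted p = 0.0193). In both genes the 2 buds were close together and well below both apices. The WT log2 fold changes were of similar size, -3.25 and -2.43. Across the alternatives tried, the first lost its call in 6 of 18 and the second in 5 of 18. Some genes that were not called fell further over both buds. TraesCS4D02G358800, described below, had a log2 fold change of -4.53 (limma adjusted p = 0.0507).

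**Figure D1:**
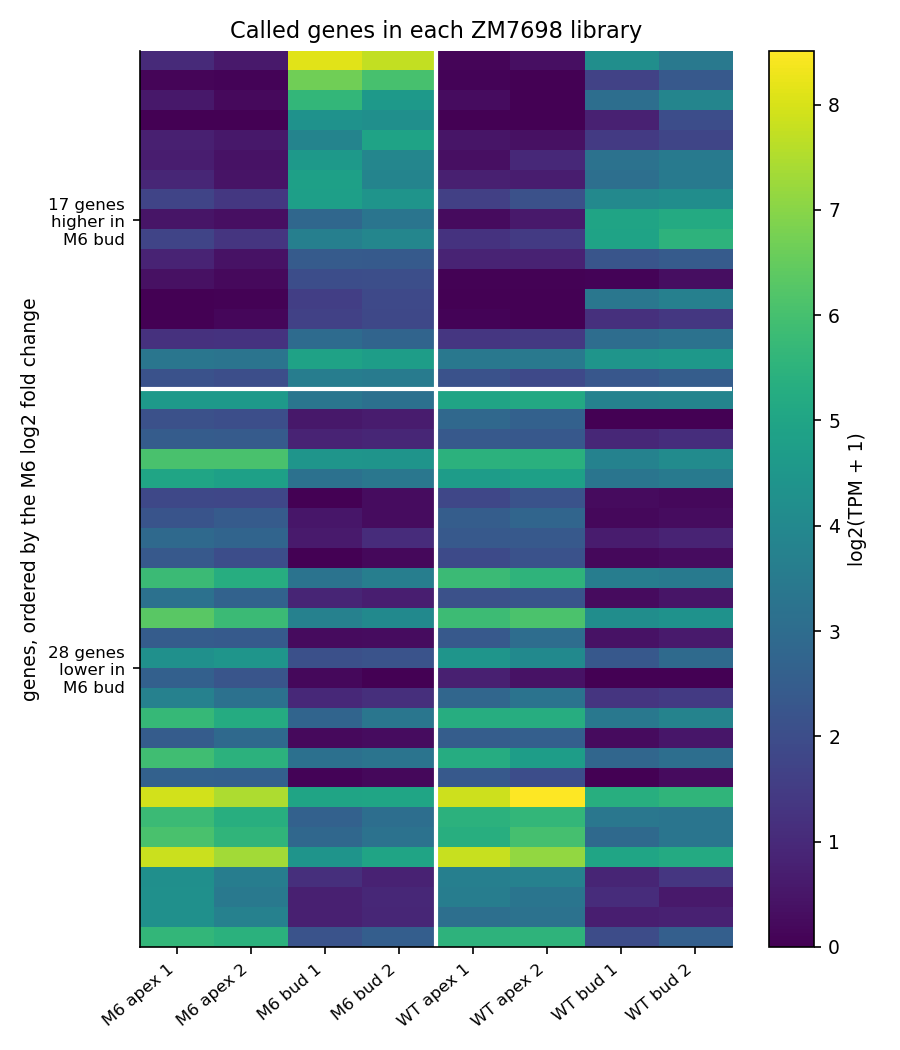
Level of the 45 called genes, as log2(TPM + 1) by colour, in each of the 8 ZM7698 libraries (columns), with genes ordered by the M6 log2 fold change (rows). The 17 upper rows are brighter in both M6 buds than in both M6 apices and the 28 lower rows are darker, and the WT libraries on the right show the same sides.

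With all 8 libraries, most M6 calls were also called in WT. Of the 45 genes, 40 (88.9%) were called in WT in the same direction, 13 of 17 higher and 27 of 28 lower, and these 40 made up 3.15% of the 1271 WT calls. M6 and WT share no libraries in this comparison but share 1 estimate of the spread. The count of 40 became 0 without WT apex replicate 2 or either WT bud, 5 and 7 without M6 apex replicates 1 and 2, 22 and 337 without M6 bud replicates 1 and 2, and 80 without WT apex replicate 1, so it describes this set of libraries only. All 45 had the same sign in WT, against 61.1% of all tested genes. The median WT log2 fold change was 1.99 over the 17 higher genes, where M6 had 2.66, and -2.05 over the 28 lower genes, where M6 had -2.28. No gene of the 50878 was called for a different bud and apex change in M6 and WT in limma, where 4105 were under 0.05 before adjustment (8.07%) and the smallest adjusted p was 0.413. Among the 45 genes, 16 were under 0.05 before adjustment, but the 45 were chosen on one side of that contrast. This count of 0 rested on the second bud: without M6 bud replicate 2 there were 750 genes called with a larger value in M6 (1.48%) and 884 with a smaller one (1.74%), 3.22% in all. Without M6 bud replicate 1 there were 0, with 3541 under 0.05 before adjustment.

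**Figure D2:**
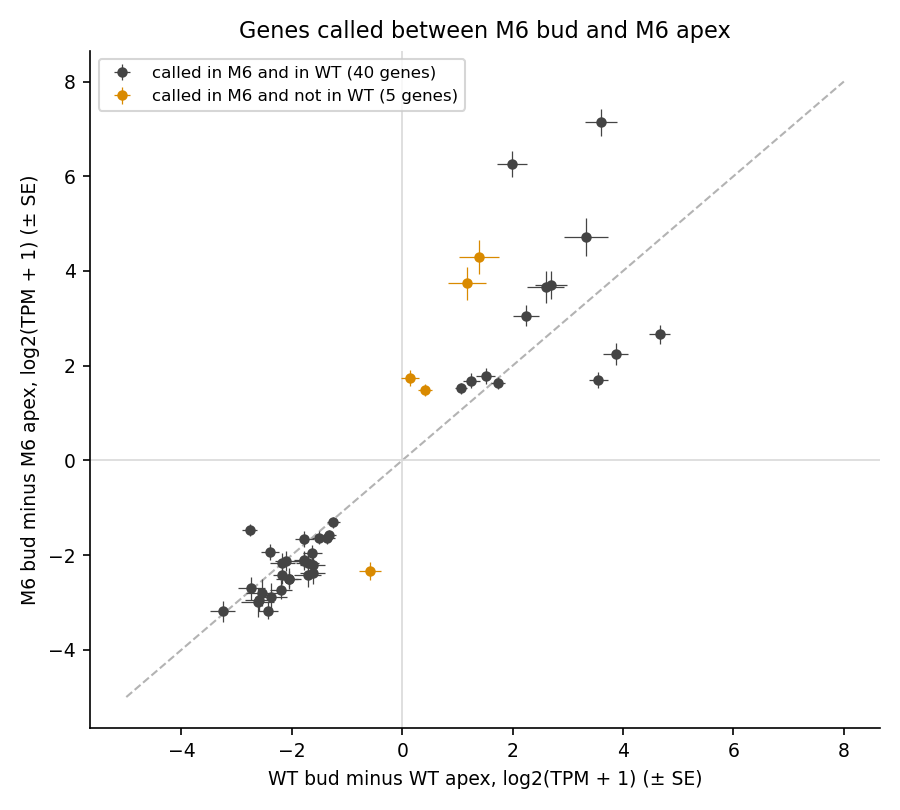
Log2 fold change between bud and apex in M6 (vertical) against that in WT (horizontal), both on log2(TPM + 1) with SE from limma, for the 45 genes called in M6; the dashed line marks equal values. All 45 lie on the same side of 0 in both genotypes, and the 2 highest points, at 7.14 and 6.25 in M6, lie at 3.60 and 1.99 in WT.

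The 5 genes called in M6 and not in WT are named here after their values were seen. TraesCS7B02G312800 was listed at 0 in all 4 ZM7698 apices and stood at 19.2 and 17.97 TPM in the M6 buds, against 0.723 and 3.0004 TPM in the WT buds. Its M6 log2 fold change was 4.29 ± 0.36 (limma adjusted p = 0.0317). TraesCSU02G124700, on no assigned chromosome, was at 0.690 and 0.448 TPM in the M6 apices and at 13.2 and 29.8 TPM in the M6 buds, with a log2 fold change of 3.74 ± 0.35 in M6 (limma adjusted p = 0.0371) and of 1.17 in WT. Both thus had the same direction in WT, with less distance between the tissues. TraesCS7D02G523300 went from 0.306 and 0.151 TPM in apex to 3.03 and 3.13 TPM in bud, with a log2 fold change of 1.74 in M6 and 0.15 in WT. It passed the filter of 1 TPM in 2 libraries only through the M6 buds, where it was high. With either bud left out it was not tested, so its call is no separate support. TraesCS1D02G027300 went from 3.3999 and 3.10 TPM to 11.2 and 10.6 TPM, with 1.49 in M6 and 0.41 in WT. TraesCS3D02G067100 was the only lower one, at 5.11 and 3.76 TPM in the M6 apices and at 0.143 and 0 TPM in the buds, with -2.34 in M6 and -0.58 in WT. It passed the filter only through the M6 apices, where it was high, and was at most 0.682 TPM in WT. None of the 5 differed from WT by the test of the difference, whose adjusted p was 0.413 for each.

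M6 bud replicate 1 alone was far from the apices. Set against both M6 apices, it gave 1857 genes called higher (3.66% of 50691 tested) and 563 lower (1.11%), 4.77% in all, with 17148 under 0.05 before adjustment. The spread in this fit came from the other groups, so the single bud is assumed to vary as they do. The balance moved with scaling: after centring each library on its median, 1430 genes were called higher and 1015 lower. When either M6 apex library was also left out, no gene was called in either direction. Among the called genes, the largest increases were in TraesCS6B02G132400 and TraesCS4A02G245100. TraesCS6B02G132400 was at 1.62 and 1.35 TPM in the apices, at 729 TPM in bud replicate 1 and at 188 TPM in replicate 2, with a log2 fold change of 8.20 ± 1.26 for replicate 1 alone (limma adjusted p = 0.0286). TraesCS4A02G245100 was at 1.86 and 1.22 TPM in the apices, at 724 TPM in bud replicate 1 and at 7.81 TPM in replicate 2, with 8.17 ± 0.89 for replicate 1 alone (limma adjusted p = 0.0195). Its WT buds held 23.1 and 114 TPM, so its level varied between buds of the same genotype in WT too. The largest decreases among the called genes were in TraesCS4D02G358800 and TraesCS4A02G208400. TraesCS4D02G358800 fell from 36.7 and 14.7 TPM in the apices to 0.0810 TPM in bud replicate 1 and 0.0244 TPM in replicate 2. TraesCS4A02G208400 fell from 124 and 79.9 TPM to 4.90 and 9.77 TPM. Their log2 fold changes for replicate 1 alone were -4.49 ± 0.63 and -4.09 ± 0.66 (limma adjusted p = 0.0260 and 0.0305). In these 2 genes both buds were low.

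M6 bud replicate 2 alone gave fewer calls. It gave 13 genes called higher (0.026% of 50092 tested) and 10 lower (0.02%), 0.0459% in all, with 4454 under 0.05 before adjustment. Among the called genes, the largest increases were again in TraesCS6A02G103300 and TraesCS6D02G091800, with log2 fold changes of 6.94 ± 0.34 and 5.94 ± 0.28. The largest decreases among the called genes were in genes that replicate 1 still held. TraesCS1A02G326800 was at 113 and 74.8 TPM in the apices, at 29.3 TPM in bud replicate 1 and at 0 in replicate 2, with a log2 fold change of -6.54 ± 0.40 for replicate 2 alone (limma adjusted p = 0.0318) and of -1.61 for replicate 1 alone (limma adjusted p = 0.0583). TraesCS3A02G397300 was at 53.8 and 53.1 TPM in the apices, at 16.4 TPM in bud replicate 1 and at 0 in replicate 2, with -5.77 ± 0.22 for replicate 2 alone (limma adjusted p = 0.0141), and it was also called lower in replicate 1 alone, with -1.64 (limma adjusted p = 0.0246). The replicate 2 calls were lost in 8 of 16 alternatives for TraesCS1A02G326800, in 5 of 16 for TraesCS3A02G397300, in 4 of 15 for TraesCS6A02G103300 and in 3 of 14 for TraesCS6D02G091800. Without WT bud replicate 1 the adjusted p (limma) of TraesCS1A02G326800 was 0.161 and that of TraesCS3A02G397300 was 0.0677, and without WT bud replicate 2 they were 0.172 and 0.0816. Without M6 apex replicate 1 they were 0.126 and 0.0714, and without M6 apex replicate 2 they were 0.0806 and 0.0533. WT buds were at 0 for TraesCS3A02G397300, and at 0 and 0.0457 TPM for TraesCS1A02G326800. Bud replicate 2 was thus at or near the WT bud level for both genes, and replicate 1 lay between the apices and the WT buds.

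Each bud had its own side of the apex for many genes. Bud replicate 1 was above both M6 apices for 25433 tested genes (50%) and below both for 18221 (35.8%). Bud replicate 2 was above both for 15023 (29.5%) and below both for 21342 (41.9%). For 8510 genes (16.7%) replicate 1 was above both apices while replicate 2 was below both, and for 3302 (6.49%) it was the reverse. The greatest differences between the buds were in TraesCS6D02G283000, at 219.8 TPM in replicate 1 and 0 in replicate 2, and TraesCS6B02G332700, at 124 TPM and 0. In the other direction TraesCS7A02G434500 was at 0.159 and 11.5 TPM and TraesCSU02G124500 at 3.30 and 25.5 TPM. With 1 library for each bud, these are values with no test. These genes also differed between replicates of other groups. The WT buds held 0.0659 and 20.7 TPM of TraesCS6D02G283000, 0.0660 and 3.25 TPM of TraesCS6B02G332700 and 1.02 and 3.565 TPM of TraesCSU02G124500. For TraesCS7A02G434500 the WT apices held 16.2 and 0 TPM and the M6 apices 0.0920 and 6.37 TPM. Of the 2645 genes at least 2-fold higher in M6 bud replicate 1, 2211 (83.6%) were higher in WT bud replicate 2 than in WT bud replicate 1, against 65.8% of all tested genes. For these genes the median log2 difference of WT bud replicate 2 over replicate 1 was 0.36, against 0.09 over all tested genes. Of the same 2645 genes, 76.3% were higher in M6 apex replicate 1 than in replicate 2, against 48.2% of all tested genes. Replicate numbers do not pair the libraries, so either replicate could have been the higher one, and these shares are values only.

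The genes called between bud and apex in WT were then read in the M6 libraries. The M6 libraries entered that choice through the filter and the shared spread: without M6 apex replicate 1 the WT calls were 501 higher and 180 lower, and without M6 apex replicate 2 they were 498 and 180. The 821 genes higher in WT bud had a median log2 fold change of 1.40 in WT and of 0.38 in M6. In M6 bud replicate 2 their median was 0.52, and 801 of 821 (97.6%) were above the M6 apex mean, where 43.5% of all tested genes were. In M6 bud replicate 1 the median was 0.24 and 564 of 821 (68.7%) were above, against 57.1% of all tested genes. The 450 genes lower in WT bud had a median of -1.58 in WT and of -1.27 in M6. For these the buds were close, with medians of -1.21 in replicate 1 and -1.30 in replicate 2, and 434 (96.4%) and 440 (97.8%) of 450 below the apex mean, against 42.9% and 56.4% of all tested genes. These genes were chosen for a large change in WT, so their medians in M6 and WT are given as values only, and a difference between the genotypes was not tested.

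A set of 18 genes, chosen after the data were seen and without the M6 buds, had at least 5 TPM in all 4 ZM7698 apices and under 0.1 TPM in both WT buds. M6 bud replicate 2 had the WT pattern, with 11 of the 18 at 0, 17 under 0.1 TPM and none at 1 TPM or more. M6 bud replicate 1 had 14 of the 18 at 1 TPM or more and 4 under 0.1 TPM, with a median of 4.79 TPM, where the median of the M6 apex means was 17.9 TPM. Its level was a median of 34.7% of the M6 apex mean, from 0.205% to 55.6%. In AK58 all 18 were lower in both buds than in both apices, as were 39% of all tested genes. In 16 of the 18 the higher AK58 root library, and in 4 the higher AK58 leaf library, was above both AK58 apices. These counts rest on the higher library of each tissue, and the 2 AK58 roots could be far apart. TraesCS3A02G397300 was at 35.9 and 1311 normalised reads in root and at 51.8 and 127 in apex. TraesCS4D02G358800 had both roots above both apices, at 1571 and 13250 against 551 and 738, and both leaves as well, at 5447 and 2511. The part of the 18 genes in the other differences of M6 bud replicate 1 was not tested. None of the 18 was called between M6 bud and M6 apex with both buds (0.0884% of all tested genes were). The converse rule, with at least 5 TPM in both WT buds and under 0.1 TPM in all 4 apices, gave 2 genes, which are given as values only since the WT buds chose them. TraesCS2A02G066900 was at 9.46 and 12.1 TPM in the WT buds and at 1.95 and 2.67 TPM in the M6 buds. TraesCS2A02G075000 was at 7.03 and 6.99 TPM in the WT buds and at 0.382 and 2.76 TPM in the M6 buds.

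**Figure D3:**
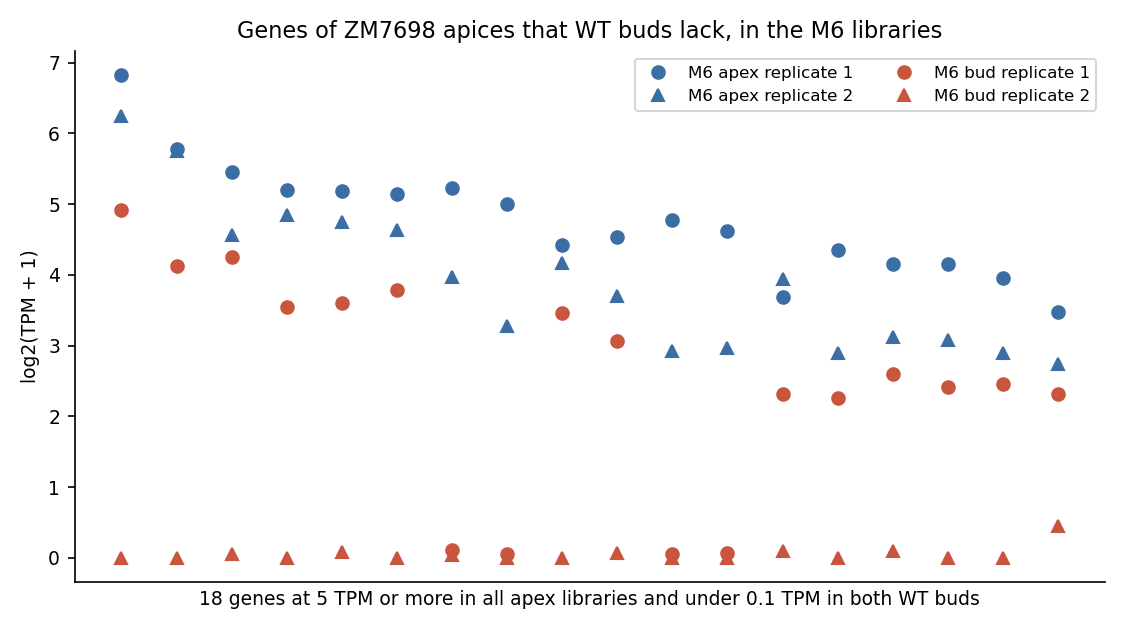
Level, as log2(TPM + 1), of 18 genes (horizontal, ordered by M6 apex mean) in the 4 M6 libraries; the genes had at least 5 TPM in every ZM7698 apex and under 0.1 TPM in both WT buds. Bud replicate 2 lies at or near 0, while bud replicate 1 reaches 1 TPM or more in 14 of the 18.

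Among the regulators of tillering, flowering and the spike, TB1 stood out. The list holds 38 identifiers of 13 regulators, taken from published identifiers alone, since neither the files nor the reference name them. Of these, 18 passed the filter of 1 TPM in at least 2 libraries; 1 was called higher in M6 bud (0.0334% of all tested genes were), 0 were called lower and 17 were not called. The 1 was TB1-4B, at 2.34 and 1.60 TPM in the M6 apices and at 27.3 and 20.4 TPM in the M6 buds. Both buds were above both apices. The means were 1.97 ± 0.524 and 23.8 ± 4.88 TPM (SD, n = 2) and the log2 fold change was 3.06 ± 0.23 (limma adjusted p = 0.0288), with 2.25 in WT. The call was lost in 8 of 18 alternatives, and the adjusted p was 0.0907 and 0.0891 without WT bud replicates 1 and 2, 0.169 and 0.111 without M6 apex replicates 1 and 2, and 0.0594 without M6 bud replicate 1. TB1-4A was at 1.28 and 1.11 TPM in apex and at 8.45 and 6.13 TPM in bud, with 1.90 ± 0.21 (limma adjusted p = 0.0508). TB1-4D was at 0.252 and 0.202 TPM in apex and at 2.74 and 1.58 TPM in bud, with 1.34 ± 0.22 (limma adjusted p = 0.0994). In each TB1 copy both buds were above both apices, as in 19.8% of all tested genes. Only the copy on 4B passed the test. TB1-4A passed it in 6 of 18 alternatives and TB1-4D in 3 of 17. In AK58, TB1-4B held 29.2 and 38.2 normalised reads in apex and 18.01 and 33.7 in the older, cold-treated buds, so those groups overlapped. The other copies were lower in both AK58 buds than in both AK58 apices, with 15.9 and 23.8 against 37.6 and 67.1 for TB1-4A and 15.9 and 30.4 against 41.8 and 41.6 for TB1-4D, the opposite side from M6.

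The other measured regulators lay within a narrow range between M6 bud and M6 apex, and none was called. SVP1, a MADS-box factor of the vegetative and early reproductive shoot, was at 11.9 and 12.3 TPM (6A), 10.6 and 10.2 (6B) and 9.83 and 9.51 (6D) in the apices. M6 bud replicate 1 held 17.2, 18.1 and 14.5 TPM of these copies and replicate 2 held 12.03, 9.54 and 9.07 TPM, so replicate 1 was above and replicate 2 was not above both apices. Their log2 fold changes were 0.24, 0.31 and 0.23 (limma adjusted p from 0.615 to 0.660). SVP1-6D was far lower in WT, at 0.186 and 0.395 TPM in apex and at 0.154 and 0.268 TPM in bud. The cause of this difference between the genotypes was not tested. VRT2, of the same MADS-box clade, had log2 fold changes of -0.21 (7A), 0.21 (7B) and 0.09 (7D), with bud replicate 1 from 1.39 to 1.54 times replicate 2. RHT1, the DELLA repressor of gibberellin response, was the most abundant of the list: 4D held 172 and 160 TPM in apex and 170 and 142 TPM in bud, and the log2 fold changes of 4A, 4B and 4D were 0.10, 0.20 and -0.09. Q, the AP2-type factor of spike shape and threshability, had 5A at 19.5 and 18.8 TPM in apex and at 30.2 and 19.0 TPM in bud, with log2 fold changes of 0.31, 0.00 and -0.10 for 5A, 5B and 5D. LFY, a floral meristem factor, was near 1 TPM, with 2B at 0.809 and 1.10 TPM in apex and 0.768 and 1.44 TPM in bud, and 2D at 0.901 and 0.829 against 0.537 and 1.23 TPM. PPD1-2D, a pseudo-response regulator of photoperiod response, was at 3.79 and 2.79 TPM in apex and at 2.46 and 1.01 TPM in bud, both buds below both apices, with a log2 fold change of -0.69 (limma adjusted p = 0.503). PPD1-2A, which did not pass the filter, was on the opposite side, at 0.178 and 0.326 TPM in apex and at 0.582 and 0.450 TPM in bud. The sign of the log2 fold change turned in at least 1 alternative for each measured copy other than those of TB1 and PPD1, mostly with 1 M6 bud left out. Bud replicate 1 was above replicate 2 in 16 of the 18 measured copies, against 61.7% of all tested genes, and the 2 measured LFY copies were the exceptions.

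**Figure D4:**
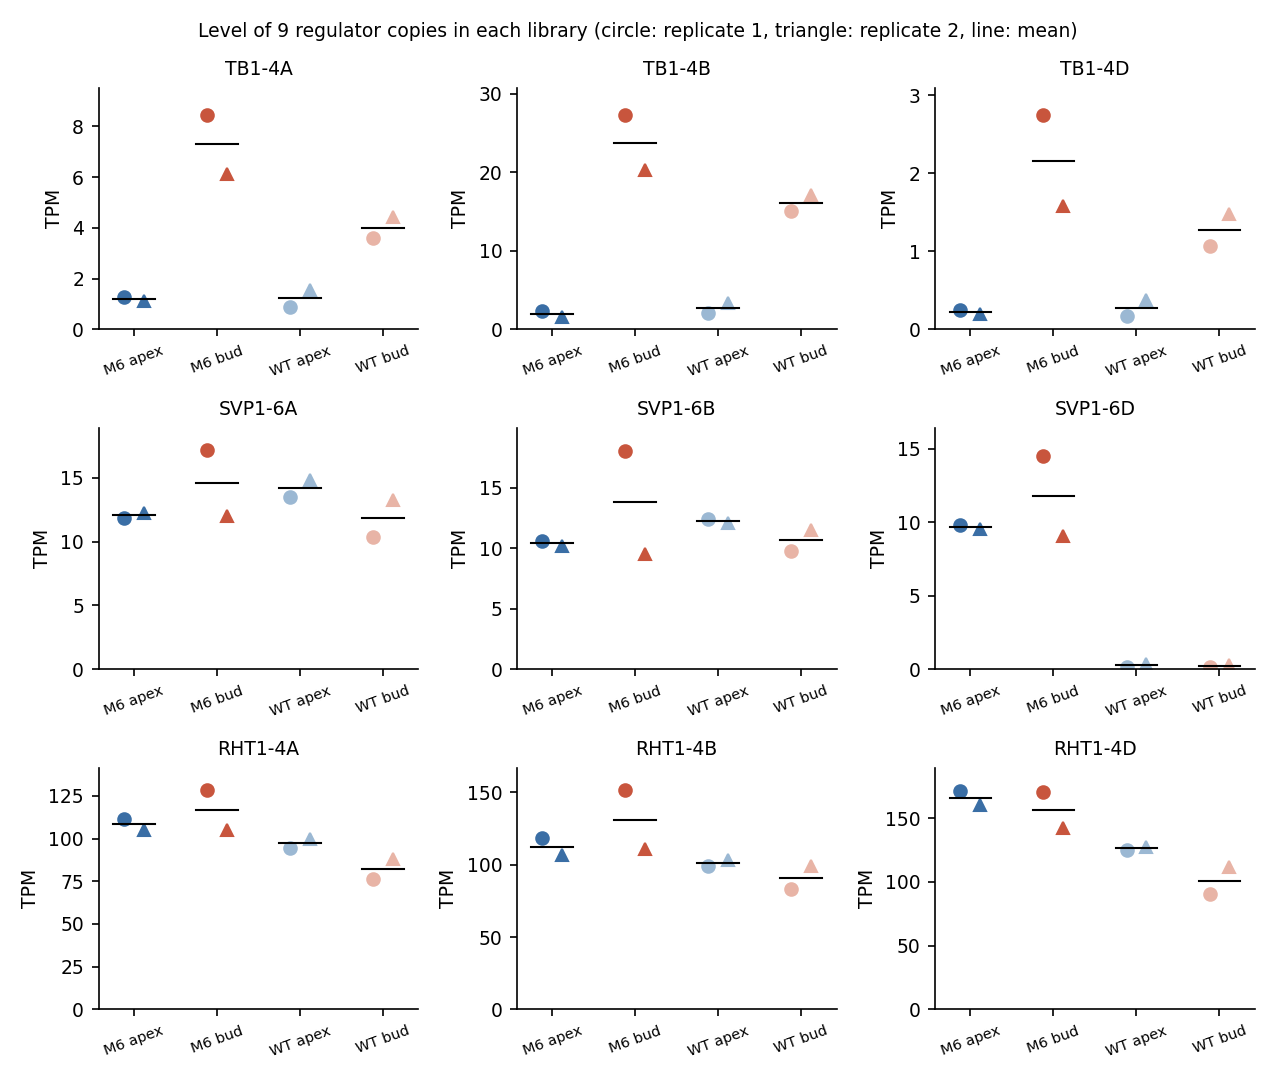
TPM of 9 regulator copies (TB1, SVP1 and RHT1, 3 copies each) in M6 apex, M6 bud, WT apex and WT bud; circles are replicate 1, triangles replicate 2 and lines the group mean of 2. The TB1 copies are higher in both buds of each genotype, and in the SVP1 panels M6 bud replicate 1 stands above replicate 2, at 17.2 against 12.03 TPM for 6A. SVP1-6D is at most 0.395 TPM in the WT libraries.

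The other 20 regulator copies did not pass the filter. VRN1, the MADS-box gene that rises with vernalization, was at most 0.0288 TPM in the M6 libraries. The 6 copies of FUL2 and FUL3, its paralogs, were at most 0.00516 TPM, with 4 of 6 listed at 0 in all M6 libraries, and FT1, the florigen gene, was listed at 0 in each. FZP, an ERF factor of the spikelet meristem, and WAPO1, an F-box gene of spikelet number, reached at most 0.215 and 0.527 TPM. None of these genes reached 1 TPM in an M6 library. In AK58, VRN1-5A held 31.8 and 54.3 normalised reads in apex and 1394 and 1536 in the cold-treated buds.

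Lists of genes that mark 1 AK58 tissue (at least 10 normalised reads there and at least 4 times the highest other AK58 library) gave a view of what each M6 library held. The AK58 buds were the only AK58 samples taken at 6 weeks and after 30 days at 4 °C. Genes of the bud, of age and of cold thus cannot be told apart in the bud list. It has 609 genes, of which 425 were tested, with 2 called higher in M6 bud and 1 lower. Its median log2 fold change was 0.02, against 0.03 over all tested genes and 0.90 for the same list in WT. The 2 M6 buds went opposite ways, with -0.12 in replicate 1 and 0.14 in replicate 2. Over all genes tested with each bud alone these medians were 0.07 and -0.03. Its summed level was 18012 and 12337 TPM in the M6 apices and 14532 and 17340 TPM in the M6 buds, so the groups overlapped. In WT they did not, at 9892 and 8945 TPM in apex and 21023 and 23739 TPM in bud. The 425 genes were not overlapping between the M6 tissues with the bud higher in 25.2% and lower in 17.4%, against 19.8% and 20.6% of all tested genes. The apex list (1507 genes, 758 tested) had no called gene and a median of -0.06 over both buds, with 0.01 in replicate 1 and -0.08 in replicate 2, against 0.07 and -0.03 over all genes tested with each bud alone. It was not overlapping with the bud higher in 19.5% and lower in 25.5%. Its summed level, over all 1507 genes, was 9968 and 10491 TPM in the M6 apices, 16206 TPM in M6 bud replicate 1 and 11467 TPM in replicate 2. In this sum replicate 1 was the highest of the 8 ZM7698 libraries. The medians above cover only the 758 tested genes and are set against the M6 apex mean, so they do not rank the libraries. In WT this sum was lower in bud, at 8209 and 9116 TPM, than in apex, at 10372 and 13168 TPM.

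The leaf and root lists were built by the same rule from AK58 leaf and root. The leaf list (1242 genes, 221 tested) had 1 gene called higher and a median log2 fold change of 0.11, with a summed level of 2707 and 1865 TPM in the M6 apices and of 2647 and 3125 TPM in the M6 buds. The root list (3970 genes, 441 tested) had 1 gene called higher and a median of -0.20, with -0.03 in replicate 1 and -0.48 in replicate 2. Its genes were not overlapping with the bud higher in 14.3% and lower in 41%, and those of the leaf list in 33.9% and 23.1%. Over all tested genes these shares were 19.8% and 20.6%, and 0.0334% were called higher. The root list had a summed level of 3352 and 2440 TPM in the M6 apices, and of 4368 and 1980 TPM in M6 bud replicates 1 and 2. The WT buds held 1251 and 1567 TPM. M6 bud replicate 1 held the highest sum of the root list, taken over all 3970 genes. The median of the 441 tested genes was slightly below the M6 apex mean in this bud. Between 538 and 587 of the leaf genes and between 1826 and 2647 of the root genes were at 0 in each M6 library. The part of leaf or root RNA in the differences between the M6 buds was not tested. The called genes on these lists, named after their values were seen, were TraesCS2A02G066900 (leaf), TraesCS7D02G523300 (root), and on the bud list TraesCS6A02G103300 and TraesCS3A02G252200, both higher in M6 bud, and TraesCS2B02G037600, lower in M6 bud. The root gene TraesCS7D02G523300 passed the filter only through the M6 buds. TraesCS2B02G037600 was at 12.2 and 8.01 TPM in the M6 apices and at 0.954 and 1.22 TPM in the M6 buds, the opposite side from AK58.

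**Figure D5:**
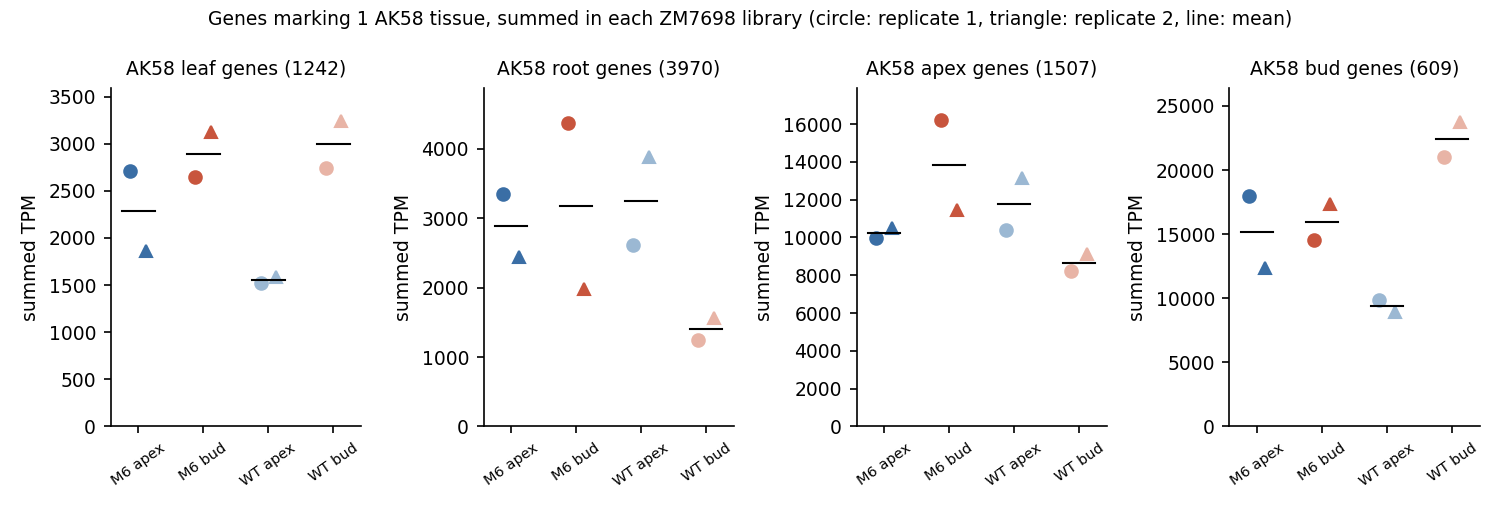
Summed TPM of the genes that mark AK58 leaf, root, apex or bud in M6 apex, M6 bud, WT apex and WT bud. Circles are replicate 1, triangles replicate 2 and lines the group mean of 2. Of the AK58 tissues, only the buds were older and cold-treated. In the bud panel the WT buds, at 21023 and 23739 TPM, lie above the WT apices while the M6 buds overlap the M6 apices, and in the apex panel M6 bud replicate 1 is highest at 16206 TPM.

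The called genes lay across the 3 subgenomes of wheat at shares close to those of the tested genes. Subgenome A held 13 calls (0.0785% of its 16566 tested genes), B held 14 (0.0884% of 15834) and D held 17 (0.101% of 16829), and 1 gene was on no assigned chromosome. No chromosome held more than 3, and none of 1135 tested noncoding identifiers was called. In AK58, 12 of the 17 genes higher in M6 bud (70.6%) were also higher in both AK58 buds than in both AK58 apices, against 35.5% of all tested genes. Of the 28 lower genes, 14 (50%) were lower in both AK58 buds, against 39.0% of all tested genes, and 11 were higher in both. Reads of near-identical copies on the 3 subgenomes may have been divided among them when transcripts were quantified, so levels of single copies are uncertain to that extent.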

How the data were processed

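RNA-seq libraries of ZM7698 (WT and M6, apex and bud) and AK58 (leaf, root, apex, bud), 2 per group, were analysed; groups follow the labels. The authors deposited TPM values for ZM7698, 120744 identifiers per library, with the same sum in each. For AK58 the deposited values are a signal, called normalised reads here: whole reads divided by a single factor for each library, from which 100% of values came out whole within 0.001 reads, and which are not corrected for gene length. Per the submitters' processing notes, Trimmomatic, HISAT2 2.0.5 and StringTie 1.3.3b were used, with the genome build not given in the sources used here. The depth of the TPM libraries is unknown; the AK58 reads summed to between 51497044 and 79585209.

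The 8 ZM7698 libraries were fitted together in limma 3.58.1 (R 4.3.3) on log2(TPM + 1) with an intensity trend, for genes with at least 1 TPM in at least 2 libraries (50878). Adding 1 TPM understates the change of low genes. Two-sided p-values were adjusted by Benjamini-Hochberg over all tested genes, and genes with an adjusted p under 0.05 and a log2 fold change of 1 or more in size were called. The comparisons were M6 bud against M6 apex, each M6 bud replicate alone (the other left out, the filter reapplied), and the M6 change against the WT change. Errors are SE for fold changes and SD for levels. The fit was tested on simulated data. Replicate numbers did not pair the libraries (correlation of replicate differences between groups -0.31 to 0.16). Figures were drawn with matplotlib 3.10.9 in Python 3.11.15. As an alternative added after the data were seen, AK58 tissue lists were also built with edgeR 4.0.16 (quasi-likelihood test) on the recovered reads.

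The members and lists were chosen with earlier results of these data known. The text names each measured regulator copy, and TB1, VRN1 and FUL2 whether measured or not. For each comparison it names the 2 genes that rose most and the 2 that fell most, among called genes with replicates that do not overlap and a mean of at least 5 TPM in the higher group; for the difference between the M6 buds, tested genes served. The reference gene table of 155467 genes matched 0 identifiers, so genes other than the listed regulators have no names and no sequences are given. Alternatives were the value added (0.1 or 5 TPM), the filter (none or 5 TPM), median centring, quantile normalization, no trend, a replicate block, no minimum fold change, the 4 M6 libraries alone, each library left out, and AK58 list rules of 2 and 10 times.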

Additional observations from a re-analysis of the deposited data

How the results depend on the processing

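All values are on TPM with depth unknown, from 2 libraries a group, and the cause was not tested for any shift given here. The genes called higher and lower in M6 bud (17 and 28) became 6 and 7 with 5 TPM added, 3 and 0 with no filter, 46 and 92 with median centring, 45 and 75 with quantile normalization, and 3 and 0 with the 4 M6 libraries alone. The count higher was 10 with a filter of 5 TPM and 28 with no intensity trend, and the count lower was 57 with 0.1 TPM added. Leaving out 1 library gave 1 to 1857 higher and 1 to 563 lower. For bud replicate 1 alone (1857 and 563), 5 TPM added gave 917 and 181, a filter of 5 TPM gave 1016 higher, no filter 217 lower, median centring 1015 lower, no minimum fold change 4085 and 1697, and leaving out a further library 0 to 1837 higher and 0 to 841 lower. For bud replicate 2 alone (13 and 10), 0.1 TPM added gave 8 and 31, 5 TPM added 4 lower, no filter 20 and 5, a filter of 5 TPM 7 and 18, median centring 29 and 30, quantile normalization 28 and 26, the 4 M6 libraries alone 1 and 1, and leaving out a further library 0 to 27 and 0 to 58. The count called in both genotypes (40) was 2 with no filter, 9 with 5 TPM added, 70 with 0.1 TPM added, 102 with median centring and 91 with quantile normalization. The WT calls (821 and 450) were 399 and 123 with 5 TPM added, 373 and 163 with no filter, 291 lower with a filter of 5 TPM and 1477 higher with no minimum fold change. The count of different M6 and WT changes was 0 to 1634 with 1 library left out. Regulators called higher (1) were 0 with no filter and with the 4 M6 libraries alone, 3 with median centring or quantile normalization, 2 with no trend and 0 to 3 with 1 library left out.

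The share of calls on subgenome A (28.9%) was 66.7% and on B (31.1%) 0% with no filter; with 1 library left out the shares were 26.1% to 50% on A, 25% to 40% on B and 20% to 36.5% on D (37.8%). AK58 list medians moved under the rule of 10 times to -0.28 (leaf), -0.53 (root) and -0.17 (apex), and under the rule of 2 times to 0.0245 (apex). With the replicate number as a block, a pairing that the data did not bear out, 1 gene was called higher and 0 lower in M6 bud, 13 higher and 7 lower in WT bud, 1 in both genotypes, 0 in each direction for each replicate alone, and 0 regulators; the share of calls was 100% on subgenome A, 0% on B and 0% on D. The TB1-4B adjusted p was then 0.0853 (limma).

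Signs turned for Q-5B with 0.1 TPM added (-0.0001), median centring (-0.0392) and quantile normalization (-0.0366), and for LFY-2D with 5 TPM added (0.0022) and quantile normalization (0.11). With 1 library left out, the M6 log2 fold change turned in the following ranges: Q-5A -0.009 to 0.63, Q-5B -0.11 to 0.11, Q-5D -0.43 to 0.23, VRT2-7A -0.45 to 0.0297, VRT2-7B -0.0747 to 0.49, VRT2-7D -0.12 to 0.29, RHT1-4A -0.0452 to 0.25, RHT1-4B -0.0237 to 0.43, RHT1-4D -0.22 to 0.0368, SVP1-6A -0.0049 to 0.48, SVP1-6B -0.11 to 0.74, SVP1-6D -0.0837 to 0.54, LFY-2B -0.14 to 0.32 and LFY-2D -0.28 to 0.26. Over the named genes of M6 bud against apex and all alternatives, 338 values kept direction and side of the threshold, 21 lost a call, 9 gained one and 22 turned.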
